A study of Homo sapiens with 8 samples.

Results

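The 10 genes described here encode histone variants whose messages end in a poly(A) tail, and they were taken by symbol from a table of 25337 genes: H2AFZ, H2AFV, H2AFX, H2AFY, H2AFY2, H2AFJ, H3F3A, H3F3B, H1F0 and H1FX. All 10 were found. They were measured by RNA sequencing in NCI-H82, a small cell lung cancer line, carrying pTripZ RB1, a transgene that doxycycline switches on to make the retinoblastoma protein pRB. There were 8 libraries in 4 groups of 2. The pRB+ AZD2811 group had 0.5 µg/mL doxycycline for 96 h and AZD2811, which inhibits Aurora B, a kinase of mitosis, at 32 nM for the last 48 h. The pRB+ control group had the same doxycycline with vehicle. The pRB- AZD2811 group had the inhibitor without doxycycline, and the pRB- control group had vehicle alone. The sample titles call the inhibitor AZD1152, a prodrug of AZD2811. All 8 libraries come from cells with the transgene, and only pRB+ cells received doxycycline, so the drug and the pRB it induces cannot be told apart. Whether the line was a clone or a pool is not given in the sources used here. The series text calls the replicates biological, and the p-values below measure the spread between these samples.

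Most core histone genes are switched on in S phase and give messages without a poly(A) tail, ending instead in a stem-loop. The variants are made by genes outside that program and are placed into nucleosomes, in part independently of replication, by dedicated chaperones. H2A.Z sits at promoters and is exchanged by the SRCAP and TIP60 complexes, H2AX is phosphorylated around DNA breaks, macroH2A carries a large macro domain, and H3.3 is deposited by HIRA and by DAXX with ATRX. H1.0 and H1X are linker histones, and H1.0 is known for accumulating in cells that leave the cycle. H2AFX is known to give both a polyadenylated and a stem-loop message.

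In pRB+ cells 3 of the variants were lower than in pRB- cells: the mean of H2AFX fell by 31.2%, that of H1FX fell by 31.2% and that of H2AFV fell by 18.6%. Of all tested genes 5.81% were called lower, and none of the 3 calls held in 5 of the 8 fits that left out 1 library or in the fit of 4 group means. H2AFY, the macroH2A1 gene, stood at the same level in both states within its spread. No variant passed the test for AZD2811. Values are FPKM (fragments scaled by transcript length and sequencing depth) as deposited, rescaled between libraries, and tests ran on log2(scaled FPKM + 1) with limma, with Benjamini-Hochberg adjustment over 12013 genes with a mean of at least 1. Of the 10 genes 8 passed that filter, and H2AFY2 and H2AFJ did not.

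RB1 stood between 6.36 and 7.67 scaled FPKM in pRB+ libraries, against 0.801 to 0.950 in pRB- libraries. Among markers of small cell lung cancer, NEUROD1 (74.8 to 111 scaled FPKM), SYP (55.5 to 77.8), CHGA (41.8 to 71.7) and ENO2 (94.6 to 130) were high in every library. Over both treatments CHGA (log2 fold change 0.58 ± 0.08) and DLL3 (0.33 ± 0.08) rose in pRB+ cells and NEUROD1 (-0.36 ± 0.08) fell (limma adjusted p = 0.0242, 0.0431 and 0.0330). In the 8 fits that left out 1 library, CHGA and NEUROD1 passed in 3 each and DLL3 in 0, with adjusted p-values of 0.0516 to 0.120 for DLL3. None of 8 markers of blood, fibroblast or endothelial cells passed 0.453 in any library. The table gives no depth, and 23400000 to 33600000 mapped fragments per library were estimated from its lowest values, which puts the counting error of H2AFZ, H2AFX, H2AFV, H1F0 and H1FX between 0.729% and 3.42%. These errors cover counting only. In 3 libraries (replicate 1 of pRB+ AZD2811, replicate 2 of pRB+ control and replicate 1 of pRB- AZD2811) RMRP, an RNA without a poly(A) tail, stood between 5792 and 14003 scaled FPKM, against 21.2 to 165 in the other 5. Replication-dependent histone genes had a median level of 22.8 to 55.4 in these 3 libraries and 0.673 to 2.29 in the other 5, so these libraries stand apart and the results are also given without them or with a term for them.

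The promoters of the 3 variants that fell and of H2AFZ are shown because they bear on the called genes and on the paralogue of H2AFV, which did not pass. Each line holds the 200 bases before the gene's start, from RefSeq on GRCh38.p14, read on the minus strand 5′ to 3′. Capitals mark, on either strand, the motifs CCAAT (the CCAAT box), TTTGAA (core of the cell cycle homology region), GGCGGGA (part of many E2F sites) and TATAAA (the TATA box).
H2AFX, now H2AX, chr11:119095466-119095665: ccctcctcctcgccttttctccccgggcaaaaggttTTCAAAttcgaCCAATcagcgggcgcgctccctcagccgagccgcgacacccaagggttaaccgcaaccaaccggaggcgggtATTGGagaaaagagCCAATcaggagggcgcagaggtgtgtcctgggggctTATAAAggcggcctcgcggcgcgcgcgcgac
H2AFV, now H2AZ2, chr7:44848088-44848287: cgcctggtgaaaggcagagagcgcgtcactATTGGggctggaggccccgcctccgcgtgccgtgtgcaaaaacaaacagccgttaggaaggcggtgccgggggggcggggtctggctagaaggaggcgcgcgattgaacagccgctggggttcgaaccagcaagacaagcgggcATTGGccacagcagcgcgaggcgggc
H1FX, now H1-10, chr3:129316287-129316486: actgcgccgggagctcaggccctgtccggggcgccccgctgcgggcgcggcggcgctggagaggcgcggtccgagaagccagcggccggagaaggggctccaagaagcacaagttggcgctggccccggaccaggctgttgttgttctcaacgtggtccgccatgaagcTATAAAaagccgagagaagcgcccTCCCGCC
H2AFZ, now H2AZ1, chr4:99950276-99950475: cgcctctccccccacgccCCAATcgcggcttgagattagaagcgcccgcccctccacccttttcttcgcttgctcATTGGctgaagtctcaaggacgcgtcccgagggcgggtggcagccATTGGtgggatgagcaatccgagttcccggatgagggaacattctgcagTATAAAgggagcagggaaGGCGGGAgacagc
Windows of 300 bases, with 250 before and 50 after the start, were searched for each of the 4 motifs on both strands, and 9 of the 10 genes had such a window. CCAAT, the letters bound by NF-Y, matched 4 times at H2AFX, 4 times at H2AFV, 3 times at H2AFZ and not at H1FX. Among the variants not shown it matched 4 times at H3F3B and 3 times at H2AFJ, and 34.6% of all 35116 windows hold it. It also matched 2 times in 1 of the 2 windows of H2AFY and in some of the 4 windows of H3F3A, but not at H2AFY2. TTTGAA, the element through which MuvB complexes bind, lay at H2AFX, 164 bases before the start, and at H2AFZ, just after it, against 15.2% of all windows. GGCGGGA was present at H2AFZ and H1FX, in 2 of 4 windows of H3F3A and in 15.4% of all windows. TATAAA lay 31 bases before the start of H2AFX, H2AFZ and H1FX alike and was also present at H3F3B, and 11.5% of all windows hold it. No 2 matches overlapped in the sequences shown. A match is a description of letters, and no binding was measured here.

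**Figure D1:**
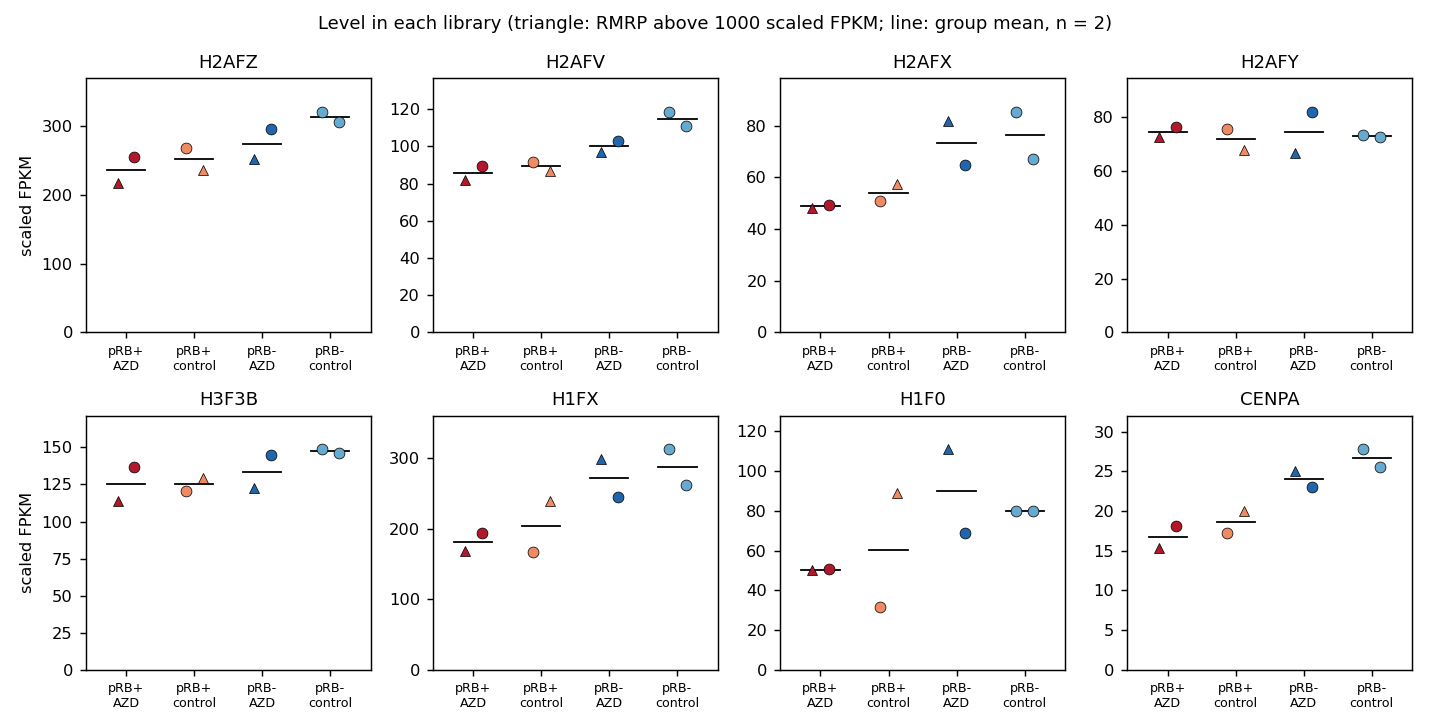
Level of 7 tested variants and of CENPA in each library, in scaled FPKM on axes that start at 0, by group (2 libraries each, line at the mean; triangles mark the 3 libraries with RMRP above 1000 scaled FPKM). In H2AFX, H2AFV, H1FX and CENPA every pRB+ library lies below every pRB- library.

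H2AFX encodes H2AX, whose phosphorylated tail recruits repair proteins. Its level was 48.3 and 49.3 scaled FPKM in pRB+ AZD2811 libraries, 50.8 and 57.3 in pRB+ control libraries, 81.7 and 64.6 in pRB- AZD2811 libraries and 85.5 and 67.1 in pRB- control libraries. All 4 pRB+ libraries lay below all 4 pRB- libraries. The mean was 51.4 ± 4.04 in pRB+ cells and 74.7 ± 10.4 in pRB- cells (SD, n = 4 each), a log2 fold change of -0.52 ± 0.10 (SE) with a 95% interval of -0.76 to -0.28 and a limma adjusted p of 0.0296. In bulk RNA, fewer cells that make a message and less of it per cell cannot be told apart.

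H2AFV and H2AFZ encode H2A.Z.2 and H2A.Z.1, near-identical proteins. H2AFV stood at 81.96 and 89.4 scaled FPKM in pRB+ AZD2811 libraries, 91.5 and 86.9 in pRB+ control libraries, 96.9 and 103 in pRB- AZD2811 libraries and 119 and 111 in pRB- control libraries. Its arms did not overlap either: 87.4 ± 4.10 in pRB+ cells and 107 ± 9.47 in pRB- cells (SD, n = 4 each), a log2 fold change of -0.29 ± 0.06 (95% interval -0.43 to -0.15, limma adjusted p = 0.0309). H2AFZ was the highest of the 10 as listed, though the level of H3F3A is uncertain, as described below. H2AFZ had 218 and 256 scaled FPKM in pRB+ AZD2811 libraries, 268 and 236 in pRB+ control libraries, 253 and 297 in pRB- AZD2811 libraries and 321 and 306 in pRB- control libraries. Its highest pRB+ library, a control, lay above its lowest pRB- library, which had AZD2811. H2AFZ averaged 245 ± 22.2 in pRB+ cells and 294 ± 29.4 in pRB- cells (SD, n = 4 each), and its log2 fold change of -0.26 ± 0.08 (95% interval -0.46 to -0.07) did not pass, with a limma adjusted p of 0.0811. With a term for the 3 RMRP-high libraries, in which H2AFZ differed by -0.21 ± 0.05 on the log2 scale, its limma adjusted p was 0.0370. Its log2 fold change was then smaller, at -0.212, and in the 5 RMRP-low libraries alone it was -0.220.

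H1FX encodes the linker histone H1X. It had 168 and 194 scaled FPKM in pRB+ AZD2811 libraries, 167 and 239 in pRB+ control libraries, 298 and 245 in pRB- AZD2811 libraries and 313 and 261 in pRB- control libraries. The arms did not overlap, though the highest pRB+ library and the lowest pRB- library were close. That pRB+ library, replicate 2 of pRB+ control, was RMRP-high. In the fit with a term for RMRP-high libraries, that term was 0.19 ± 0.13 for H1FX, 0.16 ± 0.10 for H2AFX and -0.11 ± 0.05 for H2AFV on the log2 scale. The mean of H1FX was 192 ± 33.7 in pRB+ cells and 279 ± 31.6 in pRB- cells (SD, n = 4 each). Its log2 fold change was -0.55 ± 0.13 (95% interval -0.85 to -0.24, limma adjusted p = 0.0425). Its antisense partner H1FX-AS1, below the filter, stood between 0.498 and 1.56 scaled FPKM; the kit keeps strand, per the labels, but whether counting used it is not given in the sources used here.

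H1F0 encodes H1.0 and varied most among the 7 tested variants other than H3F3A. Its level was 50.04 and 50.8 scaled FPKM in pRB+ AZD2811 libraries, 31.8 and 89.1 in pRB+ control libraries, 111 and 68.6 in pRB- AZD2811 libraries and 80.1 and 80.1 in pRB- control libraries. The arms overlapped through the second pRB+ control library, and both the pRB+ control and the pRB- AZD2811 pair were split between an RMRP-high library, which was the higher one, and a low one. The pRB+ AZD2811 pair was split too, but there H1F0 had 50.04 in the RMRP-high library and 50.8 in the low one. H1F0 averaged 55.4 ± 24.1 in pRB+ cells and 85.0 ± 18.3 in pRB- cells (SD, n = 4 each), and the log2 fold change of -0.68 ± 0.30 (95% interval -1.39 to 0.03, limma adjusted p = 0.169) did not pass. It was higher in the RMRP-high libraries by 0.69 ± 0.23 on the log2 scale. With a term for them the log2 fold change was -0.85 and the limma adjusted p was 0.0494. In the 5 RMRP-low libraries alone the log2 fold change was -0.93. The part of the RMRP-high libraries in the pRB difference was not otherwise tested.

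H2AFY, which encodes macroH2A1, had 72.8 and 76.4 scaled FPKM in pRB+ AZD2811 libraries, 75.6 and 67.9 in pRB+ control libraries, 66.8 and 82.1 in pRB- AZD2811 libraries and 73.2 and 72.6 in pRB- control libraries. The arms covered each other, at 73.2 ± 3.83 in pRB+ cells and 73.7 ± 6.29 in pRB- cells (SD, n = 4 each). The log2 fold change was -0.01 ± 0.07 and its 95% interval reached from -0.18 to 0.16 (limma adjusted p = 0.952), so a fall of the size seen in H2AFX lies outside it. H2AFY2, the macroH2A2 gene, lay between 0 and 0.0873 scaled FPKM. H2AFJ, the gene of H2A.J, was listed at 0 in 7 of 8 libraries and at 0.0166 in the second pRB+ AZD2811 library. Neither was tested.

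H3F3A and H3F3B encode the same protein, H3.3, through different letters, and the table lists a further source, the pseudogene H3F3AP4. Bases 181 to 300 of the coding sequence, from GENCODE 29, are shown because they bear on how far the 3 values can be trusted. Capitals mark bases of H3F3B that differ from H3F3A.
H3F3A (chromosome 1): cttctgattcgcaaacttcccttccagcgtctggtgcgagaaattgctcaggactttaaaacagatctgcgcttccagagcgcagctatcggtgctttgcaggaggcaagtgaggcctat
H3F3AP4 (chromosome 2): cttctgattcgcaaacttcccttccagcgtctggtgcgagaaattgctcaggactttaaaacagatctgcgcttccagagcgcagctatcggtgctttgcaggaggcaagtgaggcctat
H3F3B (chromosome 17): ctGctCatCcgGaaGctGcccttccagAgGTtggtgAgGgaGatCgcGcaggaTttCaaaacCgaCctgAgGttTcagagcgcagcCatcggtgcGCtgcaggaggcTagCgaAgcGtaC
Over all 411 coding bases H3F3A and H3F3AP4 had 0 mismatches. H3F3A and H3F3B had 88, an identity of 78.59%, with no identical run beyond 14 bases. A fragment that lies in the coding part therefore cannot be assigned to H3F3A or to H3F3AP4 by its letters.

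H3F3B had 114 and 136 scaled FPKM in pRB+ AZD2811 libraries, 121 and 130 in pRB+ control libraries, 122 and 145 in pRB- AZD2811 libraries and 149 and 146 in pRB- control libraries. The arms overlapped, at 125 ± 9.82 in pRB+ cells and 141 ± 12.2 in pRB- cells (SD, n = 4 each), and the log2 fold change of -0.16 ± 0.08 did not pass (95% interval -0.36 to 0.03, limma adjusted p = 0.213).

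H3F3A was listed at 0.00579 and 12.8 scaled FPKM in pRB+ AZD2811 libraries, 0.00292 and 0.00464 in pRB+ control libraries, 10.1 and 4.38 in pRB- AZD2811 libraries and 7.68 and 10.5 in pRB- control libraries. H3F3AP4 was listed at 323 and 344 in pRB+ AZD2811 libraries, 363 and 350 in pRB+ control libraries, 319 and 399 in pRB- AZD2811 libraries and 411 and 411 in pRB- control libraries. The pseudogene was thus above H3F3B in every library, and H3F3A came to at most 3.71% of it. In 3 of the 4 pRB+ libraries H3F3A was close to 0 and in the fourth it was the highest of all 8. Because the 2 genes share their coding letters, the H3F3A value depends on how fragments were shared out, and it is reported as uncertain with no fold change. H3F3AP4 itself gave a log2 fold change of -0.15 ± 0.08 (limma adjusted p = 0.229). H3F3C, a primate copy of H3F3B that is likewise uncertain, gave -0.26 ± 0.13 (limma adjusted p = 0.221). How far H3F3B and H3F3C share letters was not examined here, and the value of H3F3B carries that limit.

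**Figure D2:**
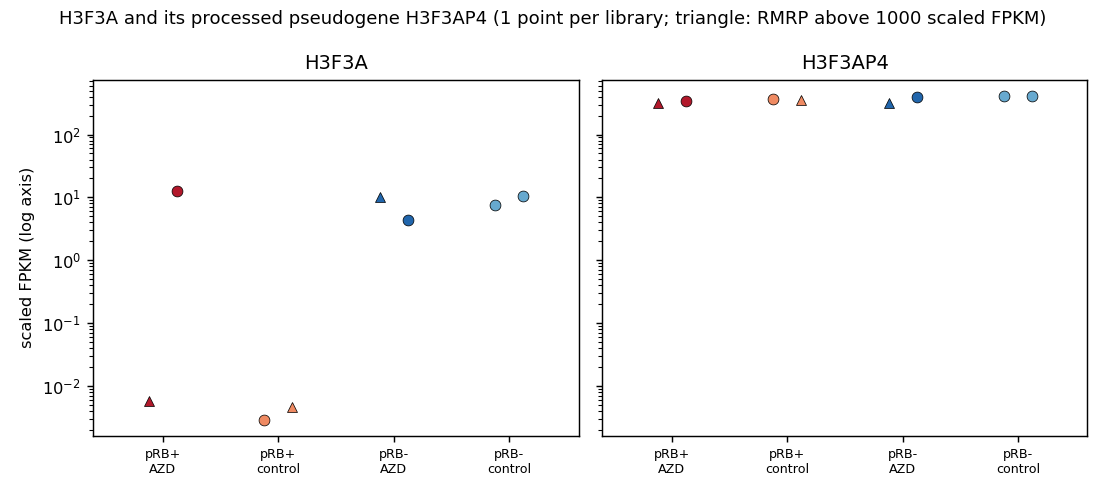
H3F3A and its pseudogene H3F3AP4 in each library, in scaled FPKM on a log axis, 1 point per library. H3F3A is near 0 in 3 of 4 pRB+ libraries, while H3F3AP4 stays between 319 and 411 in all 8.

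Over both treatments 3 of the 8 tested genes fell in pRB+ cells and 0 rose, where 5.81% of all 12013 tested genes fell and 5.34% rose. The same 3 had arms that did not overlap on the lower side, as did 11.2% of all tested genes, while on the higher side 10.7% did and none of the 8. Without the uncertain H3F3A, the log2 fold changes of all 7 other tested variants were negative, with a median of -0.29 against -0.01 over all tested genes. The value of H2AFY among them, -0.01 ± 0.07, was not separated from 0, and it was negative in 13 of 17 alternatives. The 3 calls did not survive every change of libraries: none of the 8 genes passed without replicate 1 or replicate 2 of pRB- control, replicate 1 of pRB- AZD2811, replicate 1 of pRB+ control or replicate 1 of pRB+ AZD2811, and these fits called only 1 or 2 of all genes. H2AFX alone passed without replicate 2 of pRB- AZD2811, H1F0 (-0.99, limma adjusted p = 0.0495) and H1FX passed without replicate 2 of pRB+ control, and H2AFZ, H2AFX, H2AFV, H1FX and the uncertain H3F3A passed without replicate 2 of pRB+ AZD2811. Over these 8 fits the log2 fold change ran from -0.60 to -0.45 for H2AFX, from -0.33 to -0.26 for H2AFV and from -0.65 to -0.45 for H1FX. In the 5 RMRP-low libraries alone the values were -0.49, -0.27 and -0.58, each with a limma adjusted p of 0.194.

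**Figure D3:**
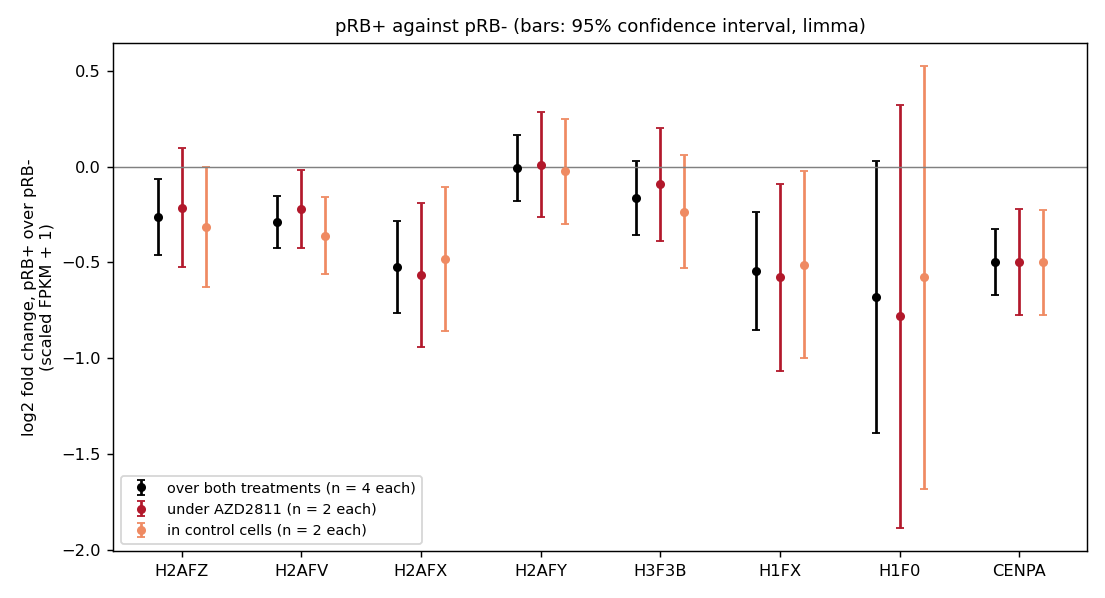
Log2 fold change of pRB+ over pRB- on the scaled FPKM + 1 scale for 7 variants and CENPA, over both treatments (4 libraries an arm), under AZD2811 and in control cells (2 libraries an arm), with 95% intervals from limma. The intervals over both treatments lie below 0 for H2AFZ, H2AFV, H2AFX, H1FX and CENPA and cover 0 for H2AFY, H3F3B and H1F0.

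Within 1 treatment, with 2 libraries an arm, 0 of the 8 genes passed. Under AZD2811 the log2 fold change of pRB+ over pRB- was -0.56 ± 0.16 for H2AFX, -0.58 ± 0.20 for H1FX and -0.22 ± 0.08 for H2AFV, with limma adjusted p-values of 0.374, 0.376 and 0.387. Of all genes 0.00832% passed there. At an unadjusted p under 0.05, 3 of the 8 passed, as did 12.3% of all genes. In control cells it was -0.48 ± 0.16 for H2AFX, -0.51 ± 0.20 for H1FX and -0.36 ± 0.08 for H2AFV, with limma adjusted p-values of 0.189, 0.244 and 0.160. There 0.0666% of all genes passed. At an unadjusted p under 0.05, 5 of the 8 passed, or 4 of the 7 without the uncertain H3F3A, as did 19.3% of all genes. For H2AFX, and likewise for H1FX, the values of the 2 treatments lay within 1 SE of each other. For H2AFZ the values were -0.21 ± 0.13 under AZD2811 and -0.32 ± 0.13 in control cells.

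AZD2811 left all 8 tested genes short of the threshold. Over both pRB states 0 passed, as did 0% of all genes, and 0 of the 8 had an unadjusted p under 0.05 where 426 of all genes, or 3.55%, did. The AZD2811 and control arms overlapped in all 8, whereas those of 0.932% of all genes did not. The log2 fold change of AZD2811 over control was lowest for H2AFZ, at -0.14 ± 0.08, and the median of the 7 variants other than H3F3A was -0.10, against -0.01 over all genes. H2AFY stood at 0.04 ± 0.07. In pRB+ cells 0 of the 8 passed by limma, against 0.00832% of all genes, and in pRB- cells 0 passed, against 0.0333%. At an unadjusted p under 0.05, 0 of the 8 passed in either state, where 0.683% of all genes did in pRB+ cells and 2.69% in pRB- cells. The interaction, which asks whether the AZD2811 effect differs between pRB+ and pRB- cells, called 0 of the 8 and 0.0166% of all genes. For H2AFX it was -0.08 ± 0.22 and for H2AFZ 0.10 ± 0.18 on the log2 scale (limma adjusted p = 1.000 for each), which leaves room for differences of the size of the pRB effect itself.

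**Figure D4:**
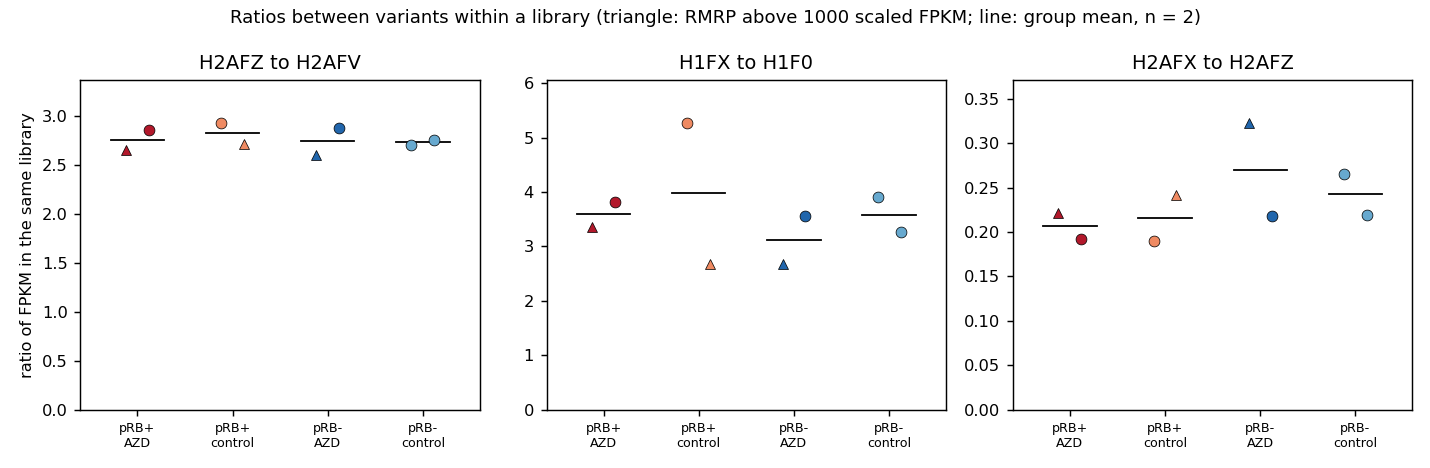
Ratio of FPKM between 2 variants in the same library, by group (2 libraries each, line at the mean; triangles mark libraries with RMRP above 1000 scaled FPKM). The H2AFZ to H2AFV ratio stays between 2.61 and 2.93 in all 8 libraries, while H1FX to H1F0 runs from 2.68 to 5.27.

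Ratios within a library do not depend on the scaling between libraries. H2AFZ exceeded H2AFV by 2.66 and 2.86 times in pRB+ AZD2811 libraries, 2.93 and 2.72 in pRB+ control libraries, 2.61 and 2.88 in pRB- AZD2811 libraries and 2.71 and 2.76 in pRB- control libraries. The balance of the H2A.Z genes was thus 2.79 ± 0.127 in pRB+ cells and 2.74 ± 0.113 in pRB- cells (SD, n = 4 each; two-sided exact permutation p = 0.571). H1FX to H1F0 came to 3.78 ± 1.10 in pRB+ cells and 3.35 ± 0.519 in pRB- cells (SD, n = 4 each; exact permutation p = 0.543). H2AFX to H2AFZ was 0.212 ± 0.0251 in pRB+ cells and 0.256 ± 0.0497 in pRB- cells (SD, n = 4 each; exact permutation p = 0.171). The 3 adjusted p-values were 0.571, 0.571 and 0.514 in that order, and 4 libraries against 4 cannot go below 0.0286.

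By mean scaled FPKM over all 8 libraries, a level per length, the order as listed was H2AFZ (269), H1FX (236), H3F3B (133), H2AFV (97.4), H2AFY (73.4), H1F0 (70.2), H2AFX (63.1), H3F3A (5.69), H2AFY2 (0.0354) and H2AFJ (0.00208). The place of H3F3A in this order is uncertain. Fragments of its coding part cannot be told by their letters from those of H3F3AP4, which averaged 365. H2AFZ and H1FX were not separated beyond their spread, since H2AFZ was higher in 6 of 8 libraries, and H1FX and H3F3B did not overlap. H2AFY, H1F0 and H2AFX were not separated either: H2AFY was above H1F0 in 4 of 8 libraries and H1F0 above H2AFX in 6 of 8. Across libraries, among the 7 tested variants other than H3F3A, H2AFY varied least, with a coefficient of variation of 6.58%, and H1F0 most, with 36.1%.

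Over the 8 libraries the log2 levels of H2AFX and H1FX had a Pearson correlation of 0.952, those of H2AFZ and H2AFV 0.951 and those of H2AFX and H2AFZ 0.619. Libraries share their pRB state and whether RMRP was high, and no p is given. The 5 genes most like H2AFZ were ACAT2 (0.995), POLR3K (0.992), CRADD (0.990), PRPS1 (0.990) and FH (0.988), and the 5 most like H2AFX were TAF6 (0.988), PHOX2A (0.987), RNF19B (0.986), SPAG5 (0.986) and TRMT11 (0.986). They had the highest values among all tested genes except the listed variants and LOC-named, small RNA and replication-dependent histone genes.

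CENPA, the centromeric H3 variant, lay outside the 10 genes and fell in pRB+ cells, at 17.7 ± 1.94 scaled FPKM against 25.3 ± 1.97 in pRB- cells (SD, n = 4 each; log2 fold change -0.50 ± 0.07, limma adjusted p = 0.0247). Of 10 genes that mark dividing cells, 7 fell and 0 rose over both treatments, with a median of -0.36. CCNA2, which encodes cyclin A2, had -0.50 ± 0.05, CDK1, its mitotic kinase, -0.52 ± 0.07 and TOP2A, a topoisomerase of dividing cells, -0.46 ± 0.07 (limma adjusted p = 0.0238, 0.0242 and 0.0243). These values were negative, as were those of H2AFX, H2AFV and H1FX, and their part in the fall of the variants was not tested. The 70 replication-dependent histone genes, of which 47 were tested, had no call in either direction by limma, and their median of 0.75 moved with the RMRP-high libraries.

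Among genes that place, read or modify the variants, those that passed moved in both directions. Over all tested genes 11.2% passed. Of 21 genes of the H2A.Z exchange complexes 1 rose and 2 fell, or 14.3%: INO80, the ATPase of a remodeller that acts on H2A.Z nucleosomes, with 0.27 ± 0.07, KAT5, the acetyltransferase of the TIP60 complex, with -0.28 ± 0.05, and BRD8, a bromodomain subunit of it, with -0.19 ± 0.04 (limma adjusted p = 0.0463, 0.0269 and 0.0405). The median of the 21 was -0.07. Of 13 tested chaperones of H3.3 and of H3-H4, 1 rose and 3 fell, or 30.8%. HIRA, which deposits H3.3, rose to 8.76 ± 1.40 scaled FPKM in pRB+ cells, against 5.55 ± 0.534 in pRB- cells (SD, n = 4 each). Its log2 fold change was 0.57 ± 0.11 (limma adjusted p = 0.0283). CHAF1B, a subunit of the replication-coupled chaperone CAF-1, had -0.40 ± 0.07, MCM2, a helicase subunit that also binds H3-H4, -0.31 ± 0.05 and RBBP4, a CAF-1 subunit shared with other complexes, -0.23 ± 0.06 (limma adjusted p = 0.0266, 0.0247 and 0.0437). MCM2 is counted among the dividing-cell genes too.

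Of 18 tested genes that phosphorylate, dephosphorylate or read H2AX, 2 rose and 2 fell, or 22.2%, with a median of -0.03. TP53BP1, a reader of damaged chromatin, had 0.41 ± 0.09 and BRCC3, a deubiquitinase of the BRCA1-A complex, 0.51 ± 0.10, while UIMC1, its ubiquitin-binding subunit RAP80, had -0.33 ± 0.05 and EYA3, an H2AX tyrosine phosphatase, -0.43 ± 0.08 (limma adjusted p = 0.0321, 0.0290, 0.0262 and 0.0296). Of 8 chaperones of H2A-H2B and H1 none passed by limma, and the nearest was SSRP1, a subunit of FACT, with -0.18 ± 0.06 and an adjusted p of 0.0779. Of 11 genes that process the stem-loop ends of histone messages, ZNF473 rose (0.39 ± 0.10) and LSM11, of the U7 particle, fell (-0.27 ± 0.07), with limma adjusted p-values of 0.0478 and 0.0464, so 18.2% passed, while SLBP, the stem-loop binding protein, gave -0.11 ± 0.06 (adjusted p = 0.204). For AZD2811 over both pRB states 0 genes of any of these lists passed. The calls named here were lost in the same 5 fits without 1 library in which the 3 variants lost theirs, CENPA included. BRD8 passed in 0 of the 8 such fits (limma adjusted p = 0.0516 to 0.124), and INO80, RBBP4 and TP53BP1 passed in 1 each.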

How the data were processed

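RNA of 8 NCI-H82 libraries, 500 ng each, was made into libraries with a stranded total RNA kit, per the labels' protocols. The values the authors deposited are FPKM in a single table. The submitters' processing notes list hg19, Cufflinks 2.2.1 and STAR 2.5.1b, giving neither role nor order; the gene annotation is not given in the sources used here. Although the sheet is named for counts, its values have decimals and were treated as FPKM. Of 25365 rows, 28 named by a date in place of a gene were dropped.

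FPKM were scaled between libraries by a trimmed mean of log ratios (factors 0.455 to 1.33) and analysed as log2(scaled FPKM + 1) with limma 3.58.1 in R 4.3.3, with an intensity trend and Benjamini-Hochberg adjustment, for 12013 genes with a mean of at least 1. Fold changes on this scale understate those of low genes. Comparisons over both treatments or pRB states used additive terms, the others 4 group means with 4 residual degrees of freedom. The fit was tested on simulated data. Ratios were tested by exact permutation. The 10 genes, all lists and the additive fits were chosen with earlier results of these data known. Named beside the 10 are RB1 as a check of the design, up to 4 genes with the smallest p of each list, and the 5 genes most correlated with H2AFZ and H2AFX; SYP and ENO2 check the cell type; AURKB, the other check of the design, fell (log2 fold change -0.44, limma adjusted p = 0.0248); CENPA and H3F3C are the tested genes of their list. Alternatives were another scaling, FPKM as deposited, a pseudocount of 0.1, no filter, a block for the replicate number, other sets of libraries or genes, and a term for libraries with RMRP above 1000 scaled FPKM. Depth was estimated from the lowest FPKM of 1523 genes with a single transcript over 1500 nucleotides, taking the length less 200. Promoters come from RefSeq (GRCh38.p14) and coding sequences from GENCODE 29; the deposited table has no coordinates.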

Additional observations from a re-analysis of the deposited data

How the results depend on the processing

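Over both treatments the log2 fold changes of H2AFX, H2AFV, H1FX, H2AFZ, H3F3B and H1F0 were negative under all 17 alternatives. H2AFX passed in 8 of them, H2AFV in 7, H1FX in 6, H2AFZ and H1F0 in 2 each and H3F3B in 0 (limma, adjusted p). The count of variants called, 3, became 1 with FPKM as deposited (H3F3A, the uncertain gene), 5 with a term for RMRP-high libraries, 0 in the 5 RMRP-low libraries alone, 0 from the fit of 4 group means (smallest limma adjusted p = 0.0572, 4 genes called in all), and 0 to 5 without 1 library. All genes called numbered 1340, but 143 with FPKM as deposited, 744 with no filter, 1 in the 5 libraries alone and 1 to 1821 without 1 library. FPKM as deposited moved the median of all genes by 0.26 under AZD2811 and -0.33 in control cells. There, 1 gene, H3F3A, was called in control cells, 1 for AZD2811 in pRB+ cells and 1 in the interaction, and H2AFZ (0.12), H2AFV (0.11) and H3F3B (0.24) turned positive under AZD2811, while H2AFY turned negative for AZD2811 over both pRB states (-0.35). H3F3A was also the 1 gene called in control cells when only those libraries were fitted. H2AFY turned positive with the RMRP term, to 0.033 over both treatments and 0.061 in control cells. Without 1 library, H2AFY ran from -0.070 to 0.047 over both treatments, -0.10 to 0.051 in control cells, -0.14 to 0.16 under AZD2811 and, for AZD2811 itself, -0.016 to 0.10. Likewise H1F0 in control cells ran from -1.31 to 0.15, H3F3B under AZD2811 from -0.22 to 0.036, and the log2 difference of the H1FX to H1F0 ratio from -0.030 to 0.29. The series text gives the replicates 2 codes without saying what they mark, so no batch or day is taken from them, and the libraries share a number only: correlations of their deviations between groups ran from -0.46 to 0.47, and not every pair was positive. With replicate as a block H2AFX and H2AFV were called and H1FX was not (limma adjusted p = 0.0517), so 2 variants and 1631 genes were called. The cause of these changes was not tested. The fits that leave out libraries also have fewer samples, and the part of this was not tested either. The leave-one-out fits of the ratios, of the genes beyond the 10 and of the AZD2811 values of H2AFZ and H2AFY were chosen after seeing the data. The fit of the 5 libraries was not run for the comparisons within 1 state or treatment, nor the fit of only the groups compared for the additive comparisons and the interaction.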
